A study of Homo sapiens with 11 samples.

Results

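The genes described here are the matrix metalloproteases (MMPs), the ADAM and ADAMTS families and their tissue inhibitors (TIMPs), taken as every gene whose symbol in the annotation of the probes starts with MMP and a digit, ADAM and a digit, ADAMTS, or TIMP and a digit. They were 60 of the 14941 genes with a symbol of their own, measured by 67 of 22464 probes. The series followed RT4, a human line from a bladder papilloma, after transfer to a cancer-modified extracellular matrix (crECM), which was Matrigel, a gel of basement membrane proteins. The 9 crECM arrays came from cells on gel-coated inserts harvested at 12 h and on days 1, 2, 3, 4, 6, 7, 8 and 9, with 1 array for each time. The 2 plastic arrays, replicates by their labels, came from cells grown on plastic, and the time those cells had spent in culture was not given in the sources used here. The title of the second plastic array also holds the words "Matrigel next", whose meaning is not given. Both groups were the same single line in the same serum-containing medium, with no allele or agent added, and nothing in the labels says that the arrays came from independent cultures, so the p-values measure only the spread between these arrays, which may be technical.

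MMPs are zinc proteases that are made as inactive precursors and cut collagens, laminins, proteoglycans and many membrane proteins, and the membrane-type members stay at the cell surface. ADAMs are membrane proteins of which those with an active site release the outer parts of growth factors, cytokine receptors and cadherins, while ADAMTS proteins are secreted and act on proteoglycans, procollagens and von Willebrand factor. TIMPs bind to the active site of these proteases, and epithelial tumors are known for changes in the balance of protease and inhibitor, part of which is made by the surrounding stroma rather than by the epithelial cells.

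The deposited level of a gene is its intensity in SD above background, that is, in standard deviations (SD) of the background noise counted from the zero point of the array, and the study took 3 SD as expressed and 5 SD as highly significantly expressed. Of the 60 genes, 40 were above 3 SD on all 11 arrays and 37 were above 5 SD on all of them. On a single array, 83.9% to 86.6% of all probes were above 3 SD, a share that is not comparable with a count over all 11 arrays. The pair given as markers of the group, MMP13 (collagenase-3) and TIMP1 (a broad inhibitor of MMPs), were not expressed by this criterion. MMP13 ranged up to 0.931 SD on crECM and was 1.46 and 0.165 SD on plastic, and TIMP1 ranged up to 2.42 SD on crECM with 0.865 SD as its higher value on plastic. The raw intensities of TIMP1 were 38.0 to 124 on crECM and 2.0 and 2.9 on plastic, and those of MMP13 were 21.2 to 91.4 on crECM and 7.1 and 1.7 on plastic. ADAM22, a receptor without an active site, was also below 3 SD on every array, and ADAM2 and ADAMTS8 passed 3 SD on a single plastic array. These 5 genes were not tested.

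The scale differed between the groups, which bears on every low gene below. The raw median intensity of an array was 224 to 482 on crECM and 140 to 162 on plastic, while the noise peak lay at 30.4 to 63.8 and at 27.8 to 29.4. A deposited level of 3 SD matched a raw intensity of 52.2 to 136 on crECM arrays, which is 0.806 to 2.75 raw noise SDs above the peak, and of 9.85 to 13.7 on plastic arrays, which is below the peak. For that reason the main results, given on the deposited scale, are also given on values rebuilt from the raw intensities with the same kind of regression, and after quantile normalization of the raw intensities, and the raw intensities of the lowest genes stand beside their levels. Fewer genes passed 3 SD of the raw noise. Of the 60 genes, 26 did so on both plastic arrays, 37 on all crECM arrays and 12 on no array. Of all probes, 44.6% to 53.4% did so on a plastic array and 76.5% to 85.4% on a crECM array. These shares are for 1 array at a time and are not comparable with the counts of genes over several arrays. The substrate and the scaling of the arrays cannot be told apart in this design.

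Of 16 urothelial and epithelial markers, 11 were above 3 SD on all crECM arrays and 14 on both plastic arrays. KRT7, KRT18 and KRT19 were far above background, and KRT13 was below 3 SD on all crECM arrays. Of these markers, PSCA was called higher on crECM, with both plastic arrays at the lowest value, and KRT13, KRT20 and CDH1 were called lower. On all crECM arrays, 8 of 10 fibroblast, 4 of 5 endothelial and 5 of 7 leukocyte markers also passed 3 SD. With 83.9% to 86.6% of all probes above 3 SD on a single array, such counts cannot tell the origin of the cells. The summed level of the urothelial and epithelial markers was 659 to 1323 SD on crECM and 782 to 828 SD on plastic. The sums for fibroblast markers were 213 to 251 SD on crECM and 248 to 259 SD on plastic, those for endothelial markers 93.6 to 117 and 88.9 to 90.1 SD, and those for leukocyte markers 112 to 140 and 102 to 107 SD. The endothelial and leukocyte sums were thus higher on every crECM array than on either plastic array. Of the leukocyte markers, CD3E was 26.8, 33.3 and 37.0 SD (lowest, median and highest) on crECM and 5.31 and 5.09 SD on plastic, while CD8A and CD68 were lower on crECM and PTPRC and CD14 were not called. Of the endothelial markers, VWF and CDH5 were higher on crECM and KDR was lower. VIM, a defining marker of mesenchymal cells, was 8.72 SD at the median on crECM, and PECAM1, one of endothelial cells, was 7.75 SD. Both were below 3 SD on both plastic arrays and at the lowest value on a crECM array. Neither was called on any of the 3 scales. Of the fibroblast markers, COL1A1 and PDGFRB were higher on crECM, and COL1A2, COL3A1 and THY1 were lower. The part of such markers in the results was not tested. In RNA from a whole culture, a change in the number of cells that express a gene and a change of its RNA per cell cannot be told apart.

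**Figure D1:**
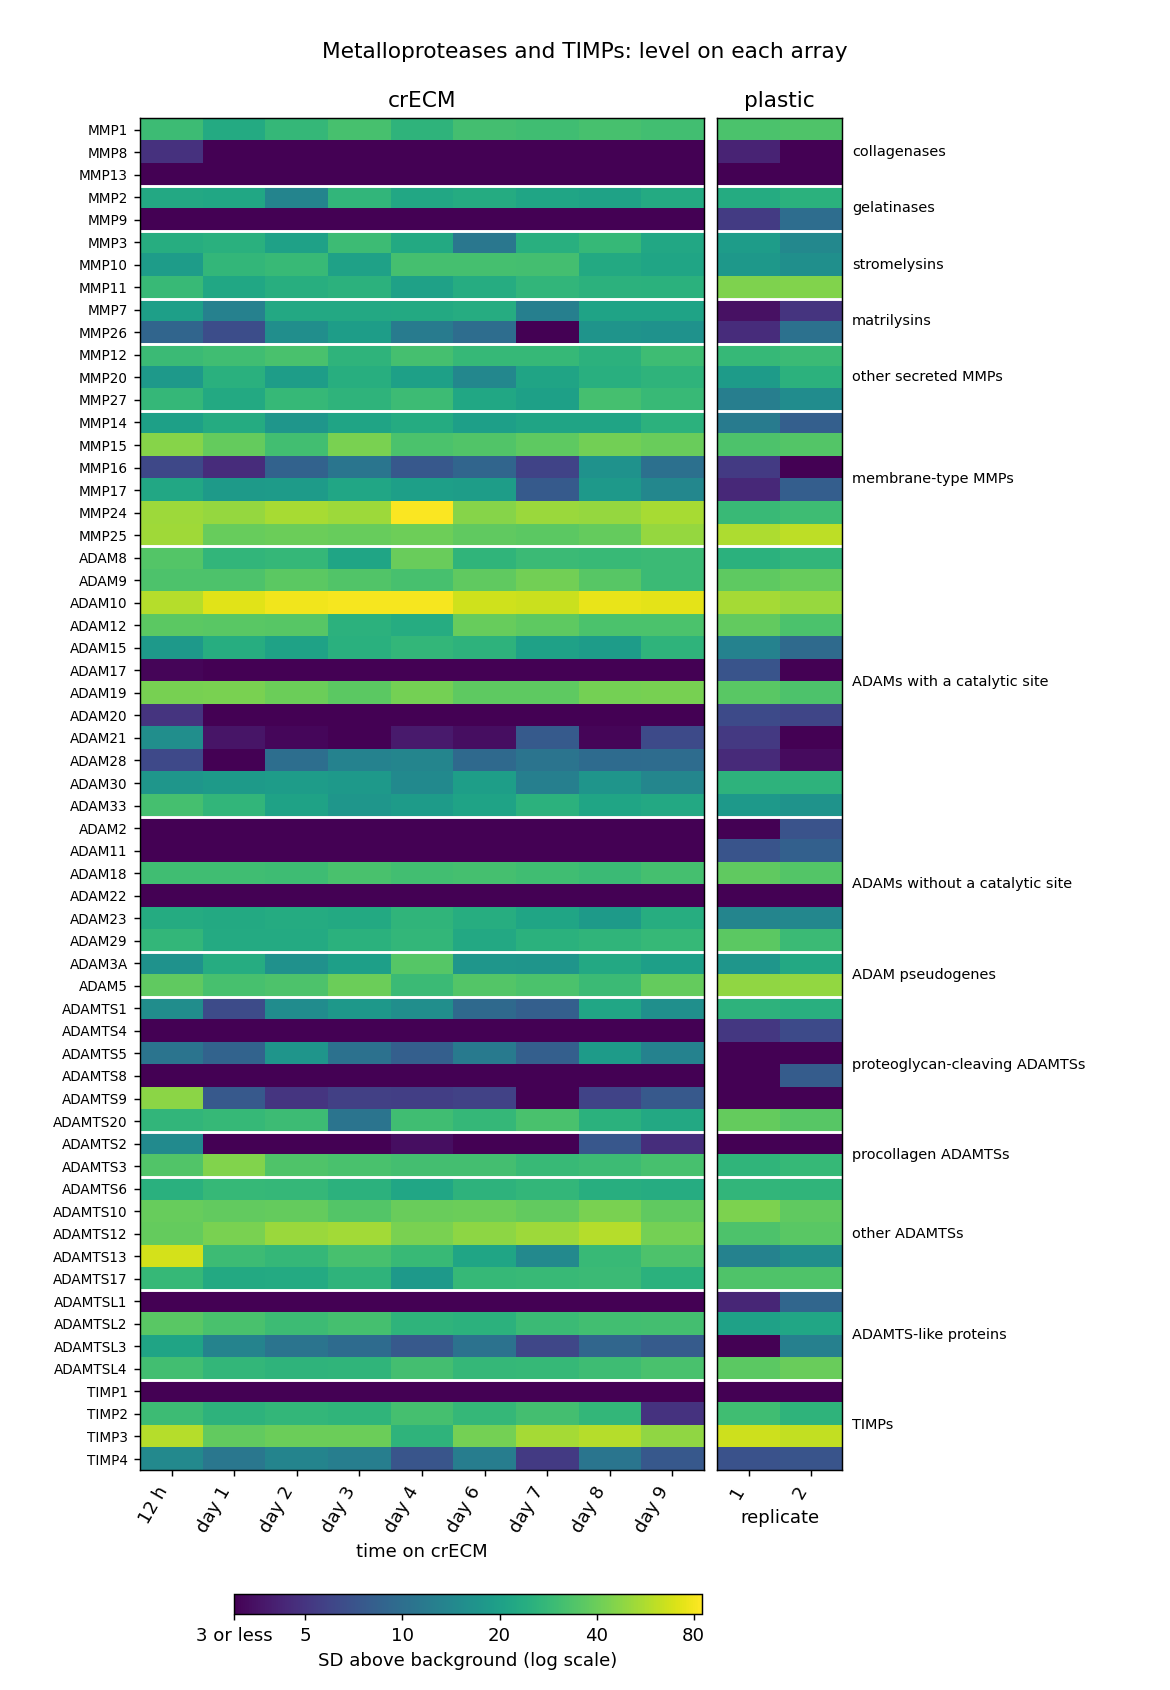
Level of each of the 60 genes (1 row each, grouped by class) on the 9 crECM arrays in order of time and on the 2 plastic arrays, as SD above background on a log color scale with values of 3 SD or less in the darkest color. All rows share 1 color scale, which is meant for comparing the arrays of a row and not the rows with each other. MMP13, TIMP1 and ADAM22 stay dark on all 11 arrays.

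On crECM, 13 of the 55 genes tested were higher and 14 were lower than on plastic (limma, adjusted p under 0.05). Over all 14517 genes tested, 24.2% were higher and 20.1% lower, and the shares among the proteases and inhibitors were 23.6% and 25.5%, so the family as a whole was called at about the rate of the whole array. Of the 14 lower genes, 4 (ADAM11, MMP9, ADAMTS4 and ADAMTSL1) passed the filter only through the plastic arrays and lay at the 3 SD floor on every crECM array, which fixes their direction, and under a stricter filter (5 SD on 6 arrays) 8 genes were lower. Of the 13 higher genes, ADAMTS5 passed only through the crECM arrays. The median log2 change was 0.03 for these genes and 0.09 for all genes. All 9 crECM arrays lay above both plastic arrays for 13 of the 55 genes tested and below them for 17, beside 22.3% and 22.1% of all genes tested. On rebuilt values 24 were higher and 4 lower of 48 tested, where 49.9% and 13.5% of all genes were called, and after quantile normalization 11 were higher and 10 lower of 51, beside 16.8% and 16.1% of all genes. Higher on rebuilt values alone were MMP3, MMP12, MMP15, MMP20, ADAM8, ADAM33, ADAM3A, ADAMTS3, ADAMTS6, ADAMTS13 and TIMP4. Lower on rebuilt values alone was TIMP3, and lower after quantile normalization alone was ADAMTS1. Called in the same direction on all 3 scales were 11 higher genes, namely MMP7, ADAMTS5, MMP17, MMP14, ADAM15, MMP27, MMP24, ADAMTSL2, ADAM10, ADAMTS12 and ADAM19, and 3 lower ones, MMP11, MMP25 and the pseudogene ADAM5. The share of all genes called on all 3 scales was not computed, so these 2 counts cannot be read as a result about the family. Another probe of ADAM10 and of ADAMTS12 was called lower on at least 1 scale, as given below. The call was kept when either plastic array was left out for 7 higher genes (MMP7, ADAMTS5, MMP14, ADAM15, MMP27, MMP24 and ADAM23) and for 2 lower ones (MMP11 and ADAM20). ADAM11, MMP9, ADAMTS4 and ADAMTSL1 were then below the filter and not tested. With 1 plastic array, calls over all genes fell as well, to 2190 higher without the first and 1704 without the second, while the log2 changes of genes that lost the call moved little for ADAM5 (-0.53 and -0.52), ADAMTSL2 (0.48 and 0.57) and MMP25 (-0.56 and -0.44).

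**Figure D2:**
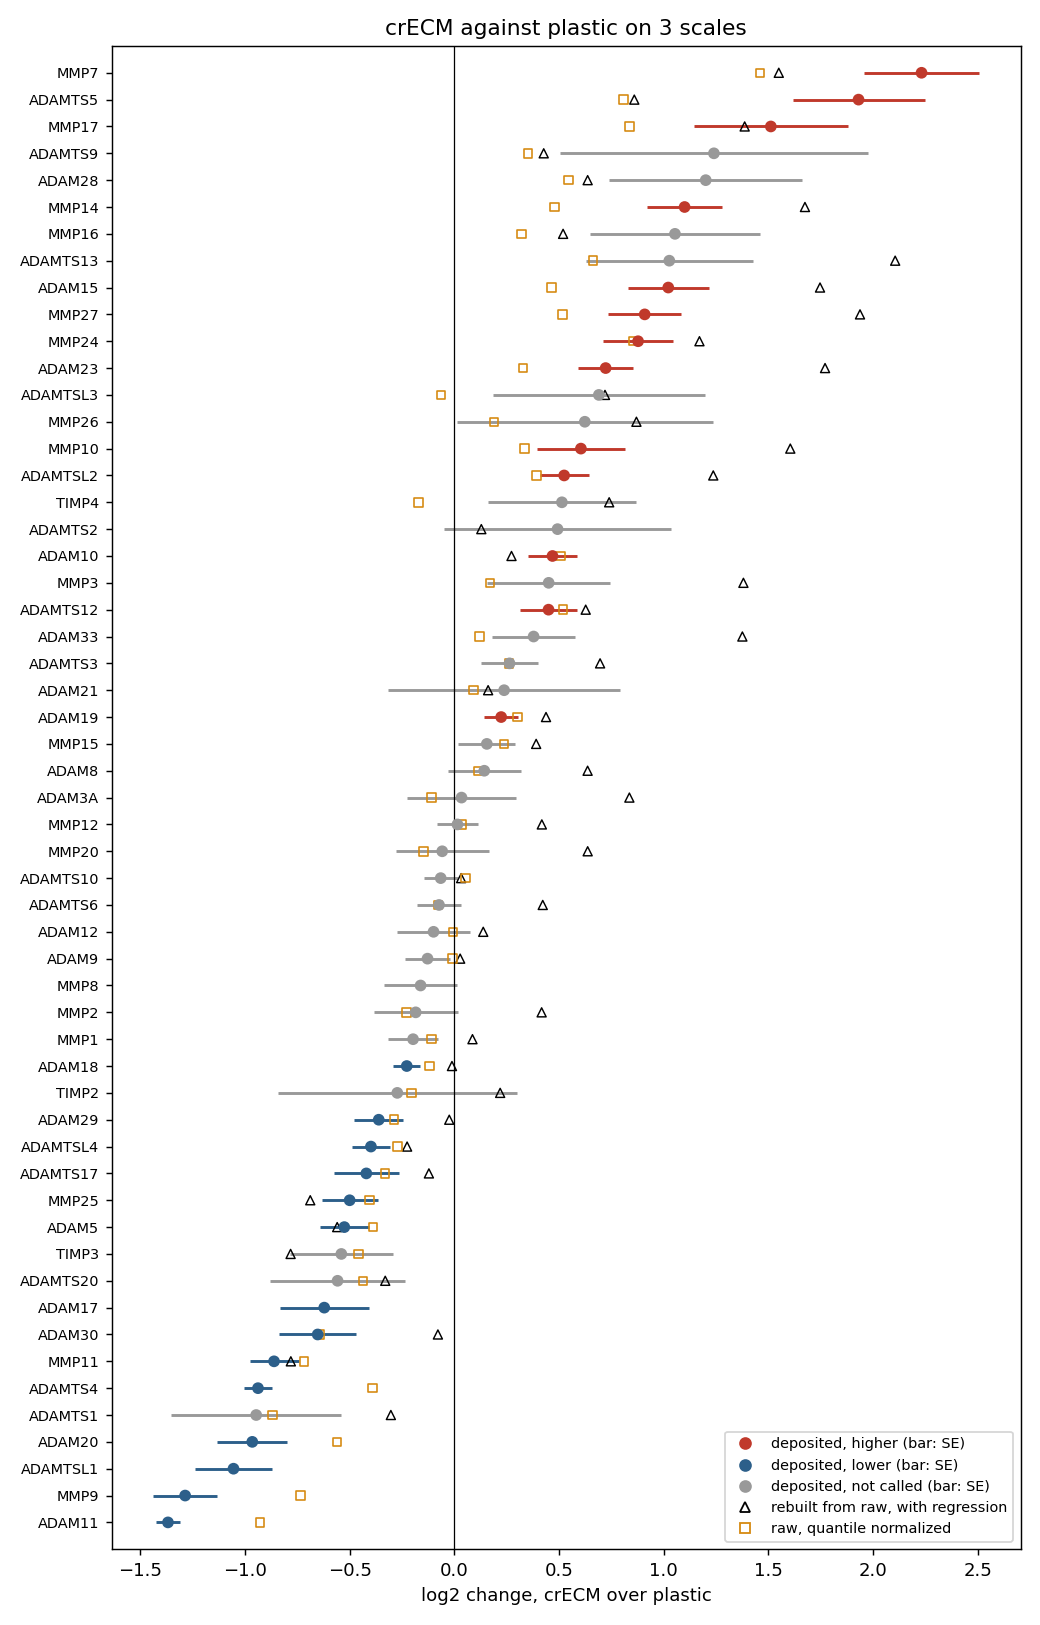
The log2 change of crECM over plastic for the 55 genes tested, with filled circles and bars for the deposited scale and its SE, open triangles for values rebuilt with regression and open squares for quantile normalization. MMP7 stands at 2.23 on the deposited scale, and MMP11 stays below 0 on all 3 scales, while many gray genes near 0 have a triangle to the right of their circle, as the rebuilt values have a median change of 0.43.

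The promoters of 5 MMPs are printed here because these genes carry the results below, 3 of them (MMP7, MMP27 and MMP10) from one cluster on chromosome 11. Each is the stretch of 250 bases before the start of the gene, from RefSeq on build GRCh38.p14. Of the 60 genes, 37 had a promoter in the RefSeq table used. Capitals mark matches, on either strand, to the AP-1 site TGANTCA, the PEA3 site AGGAAG bound by ETS factors, the TATA box TATAAA and the GC box GGGCGG, none of which overlap in the stretches shown.
MMP7, chr11:102530748-102530997, minus strand: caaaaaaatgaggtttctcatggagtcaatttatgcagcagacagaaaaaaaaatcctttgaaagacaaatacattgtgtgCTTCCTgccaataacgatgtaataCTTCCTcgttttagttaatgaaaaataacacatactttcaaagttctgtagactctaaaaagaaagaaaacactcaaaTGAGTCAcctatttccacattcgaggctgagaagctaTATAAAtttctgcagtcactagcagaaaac
MMP27, chr11:102705770-102706019, minus strand: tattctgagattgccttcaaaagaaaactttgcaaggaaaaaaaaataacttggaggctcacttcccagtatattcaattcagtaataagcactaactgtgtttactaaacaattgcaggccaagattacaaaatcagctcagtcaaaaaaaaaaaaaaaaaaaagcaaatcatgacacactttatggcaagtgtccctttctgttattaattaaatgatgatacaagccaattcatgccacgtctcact
MMP10, chr11:102780629-102780878, minus strand: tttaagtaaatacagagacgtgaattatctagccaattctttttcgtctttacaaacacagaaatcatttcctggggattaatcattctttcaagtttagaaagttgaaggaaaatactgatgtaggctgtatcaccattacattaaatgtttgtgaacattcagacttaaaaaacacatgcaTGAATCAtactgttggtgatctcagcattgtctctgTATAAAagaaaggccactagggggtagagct
MMP14, chr14:22836335-22836584, plus strand: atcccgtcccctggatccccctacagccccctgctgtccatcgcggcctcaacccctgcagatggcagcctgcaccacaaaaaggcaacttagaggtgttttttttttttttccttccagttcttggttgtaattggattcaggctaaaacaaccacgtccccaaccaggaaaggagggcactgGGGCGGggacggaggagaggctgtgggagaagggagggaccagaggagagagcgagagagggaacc
MMP11, chr22:23772599-23772848, plus strand: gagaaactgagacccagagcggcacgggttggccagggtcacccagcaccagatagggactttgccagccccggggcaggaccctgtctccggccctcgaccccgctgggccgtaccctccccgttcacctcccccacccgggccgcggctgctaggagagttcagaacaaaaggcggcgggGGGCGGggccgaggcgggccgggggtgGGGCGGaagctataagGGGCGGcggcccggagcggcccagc
The AP-1 letters stood 67 bases before the start in both MMP7 and MMP10, each followed by a TATA box, whereas MMP14 and MMP11 held GC boxes and neither of those motifs. MMP27, which was also higher, matched none of the 4 motifs in this window. Over the 37 promoters, 4 held the AP-1 letters (MMP7, MMP10, MMP20 and ADAMTS12), against 6.60% of 27305 promoters of the same length. PEA3 letters were in 9 of 37 and 28.7% of all, TATAAA in 7 and 11.1%, and the GC box in 24 and 42.3%. A match describes the letters only, and MMP20, with both AP-1 and TATA letters, was not called.

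MMP7 (matrilysin), a small MMP of glandular epithelium that cuts laminin and syndecans, was higher on crECM on all 3 scales. Its level on crECM was 12.7 SD at the lowest, 20.8 at the median and 23.9 at the highest, and on plastic it was 3.48 and 4.93 SD. Every crECM array lay above both plastic arrays, and so did the raw intensities, at 146 to 468 on crECM against 15.5 and 18.2 on plastic, where both values were below the noise peak of their arrays. The log2 change was 2.23 (SE 0.28, limma adjusted p = 6.13e-05), with 1.55 on rebuilt values and 1.46 after quantile normalization. The lowest crECM levels were those of days 1 and 7, at 13.1 and 12.7 SD. MMP26 (matrilysin-2), the related member outside the cluster, was 1.31 to 19.3 SD on crECM with 4.57 and 10.5 SD on plastic, so that the groups overlapped (adjusted p = 0.43).

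The MMP cluster on chromosome 11 holds, in order and with no other protein-coding gene between them, MMP7, MMP20, MMP27, MMP8, MMP10, MMP1, MMP3, MMP12 and MMP13. Of these, MMP7, MMP27 and MMP10 were higher, 5 were not called in either direction and MMP13 was not tested. MMP27, a little-studied member with a stromelysin-like sequence, was 20.1, 27.9 and 31.8 SD (lowest, median and highest) on crECM and 12.6 and 15.3 SD on plastic, with no overlap. Its log2 change was 0.91 (SE 0.17, adjusted p = 0.0014), with 1.94 on rebuilt values and 0.52 after quantile normalization. MMP10 (stromelysin-2), which degrades proteoglycans and activates other MMPs, was 19.2, 27.5 and 31.8 SD on crECM and 17.8 and 15.9 SD on plastic. The lowest crECM array was close to the higher plastic array, and the log2 change of 0.60 (SE 0.21, adjusted p = 0.035) was not called after quantile normalization, nor with the first or second plastic array left out (0.68 and 0.53). MMP3 (stromelysin-1), the nearest relative of MMP10, overlapped between the groups, with 11.3, 24.1 and 29.6 SD on crECM and 19.0 and 14.2 SD on plastic (log2 change 0.45, SE 0.29, adjusted p = 0.23), though it was higher on rebuilt values (1.38, adjusted p = 0.00075).

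The interstitial collagenase MMP1, which opens the triple helix of fibrillar collagen, was 23.1, 30.5 and 32.3 SD on crECM and 33.2 and 33.8 SD on plastic. All crECM arrays were below plastic, yet the log2 change of -0.20 was small (SE 0.12, adjusted p = 0.20), and MMP12 (macrophage elastase) differed by 0.01 (SE 0.10), with 0.42 on rebuilt values (adjusted p = 0.0054). The neutrophil collagenase MMP8 was at or near background, above 3 SD only at 12 h on crECM and on 1 plastic array. MMP2 (gelatinase A), an enzyme largely made by stromal cells, was 13.6, 22.2 and 27.1 SD on crECM and 23.4 and 25.5 SD on plastic, and the groups overlapped (log2 change -0.18, SE 0.20, adjusted p = 0.48). MMP9 (gelatinase B) is described with the genes near background below.

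Of the 6 membrane-type MMPs, 3 were higher on all 3 scales and 1 was lower. MMP14 (MT1-MMP), which cuts collagen at the cell surface and activates the precursor of MMP2, was 17.3, 21.2 and 25.8 SD on crECM and 12.1 and 8.21 SD on plastic. No crECM array reached down to plastic, and the log2 change was 1.10 (SE 0.18, adjusted p = 0.00049), with 1.68 on rebuilt values and 0.48 after quantile normalization. The raw intensities were 202 to 450 on crECM and 73.7 and 36.5 on plastic. MMP24 (MT5-MMP), known mainly from neural tissue, was 46.6, 52.2 and 83.8 SD on crECM and 28.9 and 30.1 SD on plastic, all crECM arrays being higher. Its log2 change of 0.88 (SE 0.17, adjusted p = 0.0015) was nearly the same after quantile normalization, at 0.85. MMP17 (MT4-MMP), which is anchored by a lipid rather than by a membrane-spanning segment, was 7.73, 18.7 and 22.2 SD on crECM and 4.44 and 8.14 SD on plastic. The day 7 array, the lowest on crECM, lay between the plastic arrays, and the log2 change of 1.51 (SE 0.37, adjusted p = 0.0061) lost its call without the first plastic array (1.07, adjusted p = 0.12).

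The other lipid-anchored member, MMP25 (MT6-MMP, leukolysin), went the other way, with 36.6, 39.1 and 52.9 SD on crECM and 56.1 and 60.9 SD on plastic. All crECM arrays were below plastic and the log2 change was -0.50 (SE 0.13, adjusted p = 0.010), with -0.69 on rebuilt values. MMP11 (stromelysin-3), which furin activates inside the cell and which is best known from the stroma around carcinomas, was lower as well. Its level was 20.4, 25.4 and 28.6 SD on crECM and 44.7 and 45.1 SD on plastic, with no overlap, and the log2 change was -0.86 (SE 0.12, adjusted p = 0.00013), with -0.78 on rebuilt values and -0.72 after quantile normalization. Its raw intensities, 271 to 516 on crECM and 454 and 420 on plastic, overlapped, so the change is one relative to the other genes of each array. For MMP11 and MMP25 the sign turned on values rebuilt without regression (0.27 and 0.34), a scale on which the median change of all genes was 1.30. MMP15 (MT2-MMP) and MMP16 (MT3-MMP) overlapped between the groups, with log2 changes of 0.16 (adjusted p = 0.38) and 1.05 (adjusted p = 0.053).

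**Figure D3:**
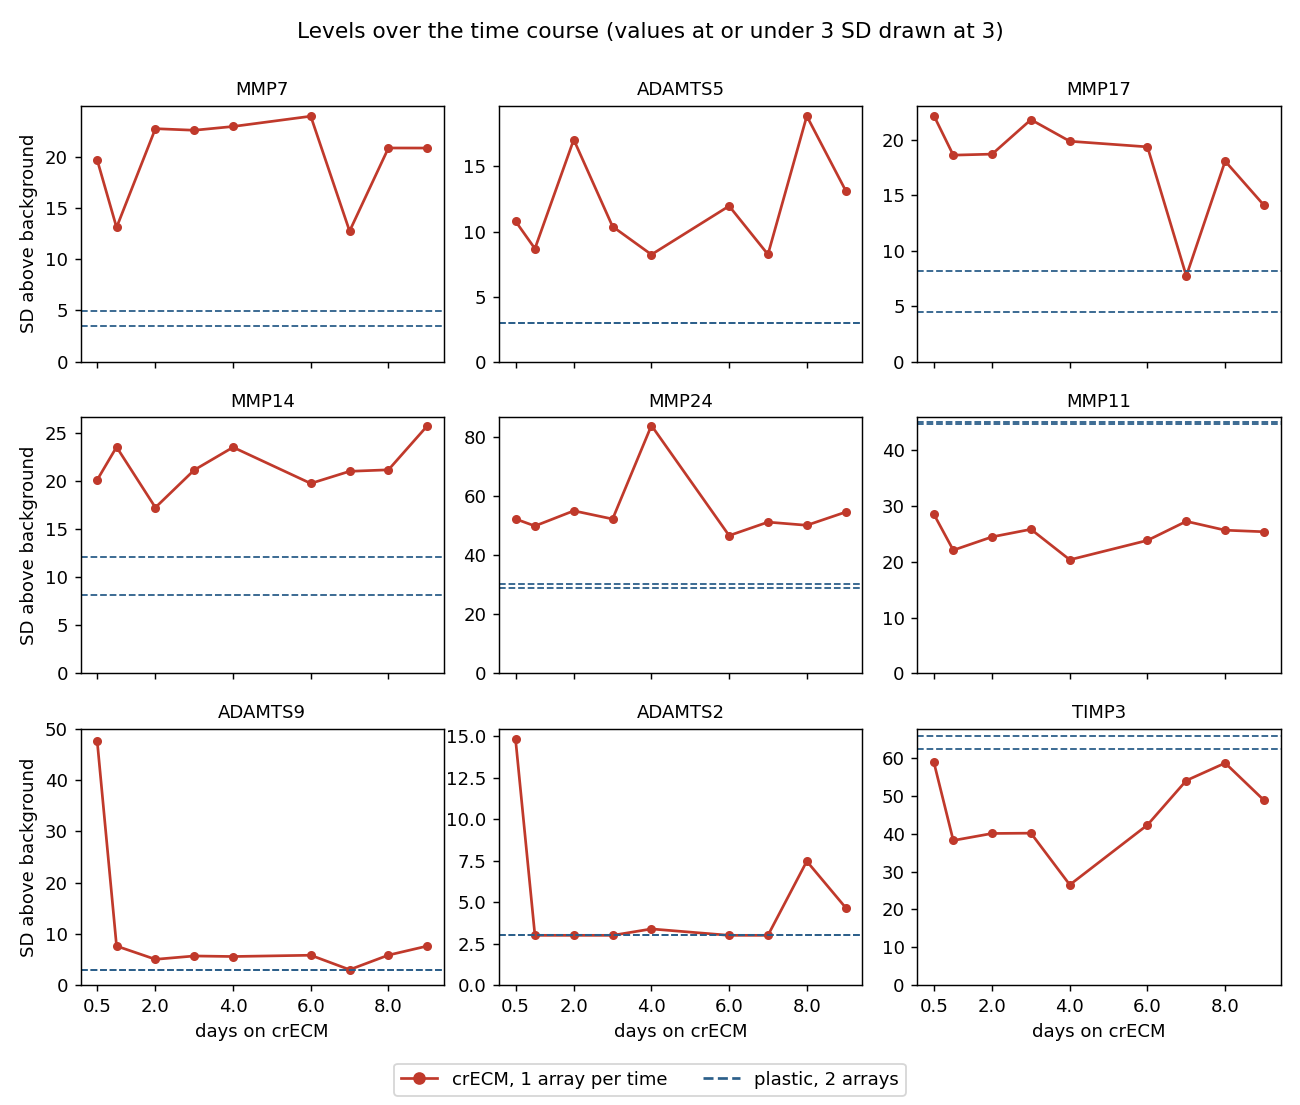
Level in SD above background (linear axes from 0) against days on crECM for 9 genes, with 1 crECM array per point and dashed lines for the 2 plastic arrays. MMP7, ADAMTS5, MMP14 and MMP24 stay above plastic at each time and MMP11 stays below it, while ADAMTS9 reaches 47.8 SD at 12 h and 7.62 SD at most afterwards.

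Among the 12 ADAMs with an active site, 3 were higher (ADAM10, ADAM15 and ADAM19) and 3 lower (ADAM17, ADAM20 and ADAM30). ADAM15 (metargidin), which carries an integrin-binding motif and is found at epithelial junctions, was 18.3, 24.1 and 27.4 SD on crECM and 13.2 and 9.47 SD on plastic. The groups did not overlap, with a log2 change of 1.02 (SE 0.19, adjusted p = 0.0013), 1.75 on rebuilt values and 0.47 after quantile normalization. ADAM19 (meltrin beta) was 36.5, 42.1 and 43.2 SD on crECM and 35.9 and 33.3 SD on plastic, a small change of 0.22 (SE 0.08, adjusted p = 0.045) that was not called with either plastic array left out. ADAM30, an ADAM of the testis, was 12.7, 17.4 and 19.5 SD on crECM and 26.2 and 26.1 SD on plastic (log2 change -0.65, SE 0.18, adjusted p = 0.014), and on rebuilt values the change was -0.08 and not called. ADAM8, ADAM9 and ADAM12, sheddases often found in carcinomas, overlapped between the groups, with log2 changes of 0.14, -0.13 and -0.10. ADAM28, which lymphocytes and some carcinomas make, was 1.84, 9.74 and 13.7 SD on crECM and 4.46 and 3.31 SD on plastic (log2 change 1.20, SE 0.46, adjusted p = 0.053). ADAM21 and ADAM33 were not called either (0.24 and 0.38).

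ADAM10, the sheddase of Notch receptors and of E-cadherin, was measured by 2 probes that went in opposite directions. The first probe, annotated to a RefSeq mRNA, was 58.7, 74.4 and 81.4 SD on crECM and 53.9 and 51.0 SD on plastic, so that all crECM arrays were higher. Its log2 change was 0.47 (SE 0.12, adjusted p = 0.0067), and the call was lost without the second plastic array (0.43, adjusted p = 0.097). The second probe, annotated to a cDNA clone, was 23.3, 28.4 and 33.4 SD on crECM and 51.7 and 58.8 SD on plastic, so that all crECM arrays were lower. Its log2 change was -1.01 (SE 0.13, adjusted p = 6.94e-05), with -1.10 on rebuilt values and -0.89 after quantile normalization. Both probes were called on all 3 scales, and the mean over them was -0.27 (adjusted p = 0.012), so the direction given for ADAM10 depends on the probe. Which part of the transcript each probe reads was not analysed here.

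**Figure D4:**
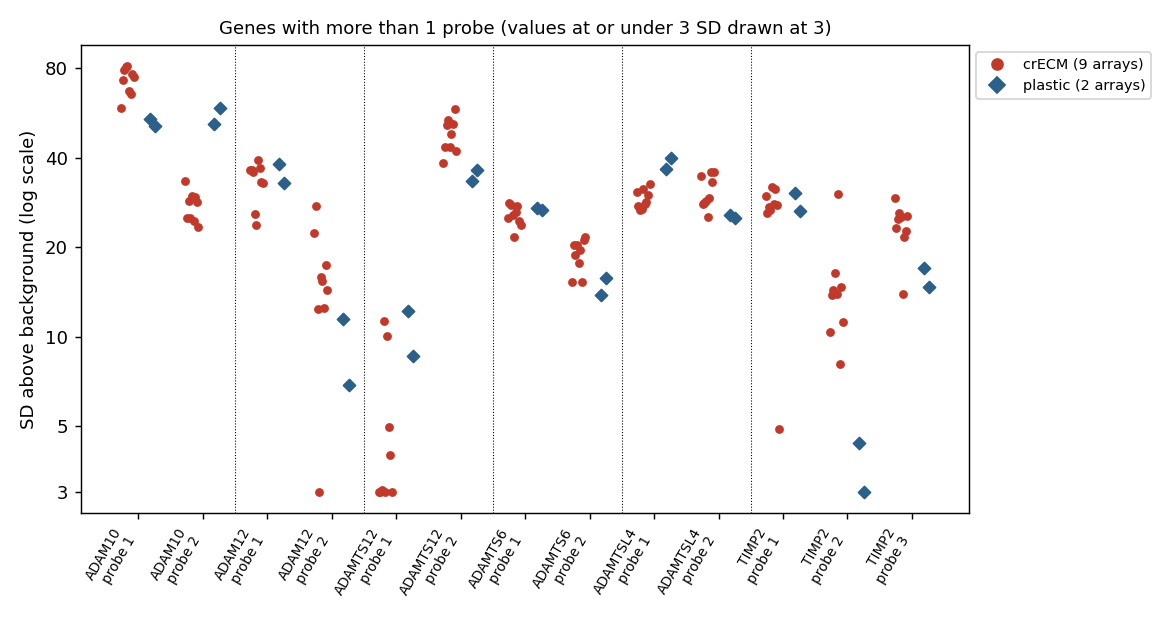
Level in SD above background (log axis) of each probe of the 6 genes with more than 1 probe, with circles for the 9 crECM arrays and diamonds for the 2 plastic arrays. The ADAM10 probes separate the groups in opposite directions, and the second TIMP2 probe is above plastic on all crECM arrays while the first overlaps.

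The same was seen in part for other genes with several probes. For ADAMTS12, which cuts cartilage oligomeric matrix protein, the probe with the higher level was 38.4, 48.0 and 58.5 SD on crECM and 33.3 and 36.3 SD on plastic (log2 change 0.45, SE 0.14, adjusted p = 0.020). The other ADAMTS12 probe, at 11.3 SD or less on crECM and at 12.2 and 8.62 SD on plastic, had a log2 change of -1.24 (SE 0.52, adjusted p = 0.075). After quantile normalization that probe was called lower (-0.97, limma adjusted p = 0.0034), opposite to the first. For ADAMTSL4, a fibrillin-binding protein without protease activity, the probes changed by -0.40 (SE 0.09, adjusted p = 0.0044) and 0.27 (SE 0.14, adjusted p = 0.12). The first ADAMTSL4 probe was also called lower after quantile normalization (-0.27, limma adjusted p = 0.040). The second was called higher on rebuilt values (0.80, limma adjusted p = 0.00012), where the first was not called. The probes of ADAM12 and of ADAMTS6 were not called on the deposited scale or after quantile normalization. On rebuilt values, both ADAMTS6 probes and the ADAM12 probe with the lower level were called higher. A call for a gene with several probes is therefore a call for the probe with the highest mean level.

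ADAMs without an active site act in adhesion and in the binding of partner proteins. ADAM23, a neuronal ADAM that binds LGI1 and integrins, was 18.6, 23.5 and 26.6 SD on crECM and 13.7 and 14.2 SD on plastic, all crECM arrays being higher. Its log2 change was 0.72 (SE 0.13, adjusted p = 0.00097), with 1.77 on rebuilt values, and it was not called after quantile normalization (0.33, adjusted p = 0.075). ADAM18 and ADAM29, ADAMs of the male germ line, were lower by small amounts, with log2 changes of -0.23 (adjusted p = 0.014) and -0.36 (adjusted p = 0.025), and neither was called on rebuilt values. The pseudogene ADAM5 was 29.3, 33.4 and 40.1 SD on crECM and 48.8 and 49.3 SD on plastic (log2 change -0.53, SE 0.12, adjusted p = 0.0038) and was called on all 3 scales, while the other pseudogene, ADAM3A, was not called (0.03).

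Of the 16 ADAMTS and ADAMTS-like genes tested, 3 were higher and 4 lower. ADAMTS5 (aggrecanase-2), which cuts aggrecan and versican, was 8.23, 10.8 and 18.9 SD on crECM, while both plastic arrays were at the lowest value that the array can take. Its raw intensities were 101 to 367 on crECM and -22.3 and -27.5 on plastic. The log2 change was 1.93 (SE 0.32, adjusted p = 0.0005), a fold of at least 3.81 because both plastic values were set to the 3 SD floor, with 0.86 on rebuilt values and 0.81 after quantile normalization. The state of each gene was read from its probe with the highest mean level. By the criteria of the study for a change of state (mean log10 level below 0 on plastic and above 1 on crECM), ADAMTS5 was off-on, as was ADAMTSL3. By that probe no gene of the family was on-off. The other ADAMTS12 probe did meet the on-off criterion, with mean log10 levels of 1.01 on plastic and -0.569 on crECM. Over all 14941 genes, 3.96% were off-on and 0.335% on-off. ADAMTSL3, an ADAMTS-like matrix protein, met the criterion through 1 plastic array, with 6.13 to 21.2 SD on crECM and with the lowest value and 12.9 SD on the plastic arrays, and its log2 change of 0.69 was not called (adjusted p = 0.29). ADAMTS1, which lies next to ADAMTS5 on chromosome 21 and also cuts versican, was 6.46, 15.5 and 21.8 SD on crECM and 26.0 and 24.6 SD on plastic. All its crECM arrays were below plastic, with a log2 change of -0.95 (SE 0.40, adjusted p = 0.078) that was called only after quantile normalization (-0.87, adjusted p = 0.042). ADAMTSL2, which binds fibrillin and a latent TGF-beta binding protein, was higher, with 25.8, 31.0 and 36.3 SD on crECM and 20.4 and 21.7 SD on plastic (log2 change 0.52, SE 0.12, adjusted p = 0.0038). ADAMTS17, linked to fibrillin matrix in humans, was lower at -0.42 (adjusted p = 0.047) and was not called on the other scales. ADAMTS13, which cuts von Willebrand factor, was 14.6, 28.7 and 68.4 SD on crECM, the highest at 12 h, and 13.2 and 15.6 SD on plastic, and its log2 change of 1.03 (SE 0.40, adjusted p = 0.055) was called only on rebuilt values (2.11, adjusted p = 0.00032). ADAMTS3, ADAMTS6, ADAMTS10 and ADAMTS20 were not called, with log2 changes between -0.56 (ADAMTS20) and 0.26 (ADAMTS3).

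Of the 14 lower genes, 6 lay near background. ADAM11 (-1.37), MMP9 (-1.29), ADAMTSL1 (-1.05), ADAM20 (-0.97), ADAMTS4 (-0.94) and ADAM17 (-0.62) were called lower, and none of them was above 3 SD of the raw noise on any array of either group. MMP9, the gelatinase of leukocytes and of invasive tumors, was at most 0.268 SD on crECM and was 5.38 and 9.95 SD on plastic, and its raw intensities were 22.2 to 73.1 on crECM and 25.7 and 47.8 on plastic. The raw values of the groups thus overlapped. ADAM17 (TACE), which releases TNF and ligands of the EGF receptor, was at most 3.16 SD on crECM and was 7.18 and 1.53 SD on plastic (adjusted p = 0.033), while its raw intensities were higher on crECM, at 49.5 to 69.2 against 36.9 and 4.6 on plastic. ADAMTS4 (aggrecanase-1) was at most 0.933 SD on crECM and 5.18 and 6.38 SD on plastic, with raw intensities of -7.47 to 72.5 on crECM and 24.5 and 25.8 on plastic. The raw intensities of ADAM11 were 42.2 to 101 on crECM and 36.9 and 37.4 on plastic, all crECM arrays being higher, the opposite of the deposited direction. Those of ADAM20 were 27.1 to 81.1 on crECM and 31.5 and 24.0 on plastic, and those of ADAMTSL1 36.5 to 69.3 on crECM and 19.6 and 41.9 on plastic, with overlap in both. On rebuilt values all 6 were below the filter and not tested, while after quantile normalization ADAM11, MMP9, ADAM20 and ADAMTS4 were again lower (log2 changes of -0.93, -0.74, -0.56 and -0.39). Their folds are bounds set by the 3 SD floor. The other 8 lower genes were above 3 SD of the raw noise on all 11 arrays. The higher genes also reached the noise on plastic. Of the 13, 8 were below 3 SD of the raw noise on both plastic arrays (MMP7, ADAMTS5, MMP17, MMP14, ADAM15, MMP27, MMP10 and ADAM23). On all crECM arrays, 11 of the 13 were above it.

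**Figure D5:**
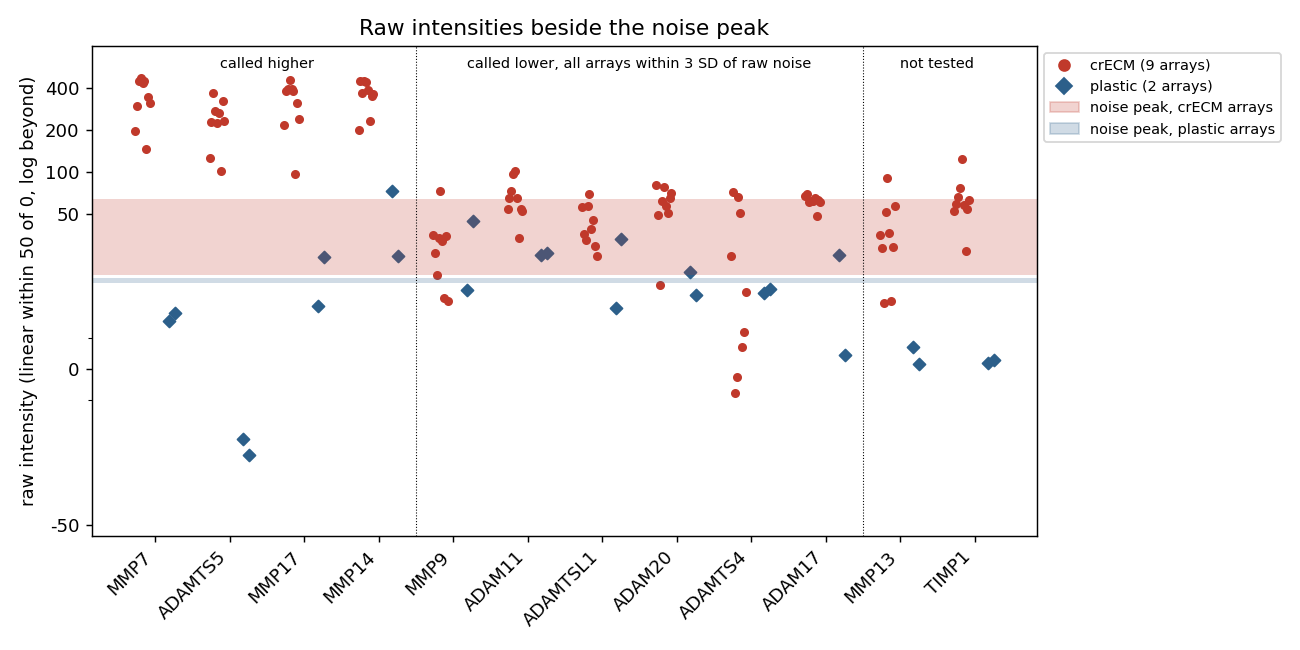
Raw intensity (axis linear within 50 of 0 and logarithmic beyond) of 4 genes called higher, the 6 called lower near background, and MMP13 and TIMP1, with circles for the 9 crECM arrays, diamonds for the 2 plastic arrays and bands for the range of the noise peak. The crECM circles of MMP7, ADAMTS5, MMP17 and MMP14 stand above the plastic diamonds, while for the 6 lower genes the values of both groups lie around the bands.

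Of the inhibitors, none was called on the deposited scale by the probe with the highest mean level. TIMP3, the inhibitor that binds to the matrix and also blocks ADAM17 and the aggrecanases, was 26.5, 42.4 and 59.0 SD on crECM and 65.8 and 62.6 SD on plastic. All crECM arrays were below plastic, with the lowest on day 4, but the spread over time was wide and the log2 change of -0.54 was not called (SE 0.25, adjusted p = 0.096), although on rebuilt values it was (-0.78, adjusted p = 0.0067). TIMP2, which takes part in the activation of MMP2 by MMP14, had 3 probes. The first was 4.90, 27.6 and 31.8 SD on crECM and 30.3 and 26.5 SD on plastic (log2 change -0.27, SE 0.57, adjusted p = 0.72). Its lowest value was that of day 9, with the next at 26.0 SD. The second probe was 8.10, 13.9 and 30.2 SD on crECM and 4.40 and 2.11 SD on plastic (log2 change 1.93, SE 0.38, adjusted p = 0.0018). It was also called higher on rebuilt values (1.09) and after quantile normalization (1.04). The third was 14.0, 24.8 and 29.4 SD on crECM and 17.0 and 14.6 SD on plastic (log2 change 0.55, SE 0.22, adjusted p = 0.062). It was called higher on rebuilt values alone (1.55). The mean over the TIMP2 probes was 0.74 (adjusted p = 0.029), so the result given for TIMP2 depends on the probe. TIMP4 was 5.29, 11.2 and 14.5 SD on crECM and 6.98 and 7.18 SD on plastic, with overlap (log2 change 0.51, SE 0.35, adjusted p = 0.26). On rebuilt values it was called higher (0.74, limma adjusted p = 0.028).

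Within crECM, the question was whether levels moved with time, and no gene of the family followed a trend over days. Of 48 tested, 0 were called in either direction and 4 had an unadjusted p under 0.05 (limma slope on log2 of the day), while over all genes 0.00727% rose and 0.0% fell. Of all 19858 probes in the same limma fit, 1474 had an unadjusted p under 0.05. At 12 h, 2 of the 48 were higher than on days 1 to 9 and 0 were lower, beside 2.11% and 2.2% of all genes, and 8 had an unadjusted p under 0.05. ADAMTS9, a protease of versican and aggrecan, was 47.8 SD at 12 h, 7.62 SD at most on the later days and at the lowest value on both plastic arrays. The log2 change of 12 h against the other crECM arrays was 3.10 (SE 0.44, limma adjusted p = 0.0060), and the raw intensity at 12 h was 434. ADAMTS2, which removes the amino end of procollagens, was 14.9 SD at 12 h, 7.47 SD at most later, and 1.01 and 1.89 SD on plastic (log2 change 2.04, SE 0.48, adjusted p = 0.045). The 12 h results rest on a single array, which was assumed to vary like the others and which also had the lowest raw median (224), and the part of that median in them was not tested. With 1 array at 12 h, the number of genes with an unadjusted p under 0.05 cannot be read as an excess. With a floor of 1 SD, 0 genes were called higher at 12 h. Against plastic, ADAMTS9 and ADAMTS2 over all crECM arrays were not called (adjusted p = 0.19 and 0.48).

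Genes that act with the family were read from lists on the same fit. Of 15 proteases that activate MMPs and ADAMs, 3 were higher and 2 lower. FURIN, the convertase that activates MMP11, MMP14 and most ADAMs, was 44.4, 52.1 and 57.9 SD on crECM and 35.3 and 32.4 SD on plastic (log2 change 0.60, adjusted p = 0.00046), and the related PCSK5 changed by 0.87. Neutrophil elastase (ELANE) had the largest change of this list at 2.79, with 21.0 to 48.1 SD on crECM and 5.47 and 5.19 SD on plastic. Of 13 other protease inhibitors, 3 were higher and 4 lower, with PZP, a relative of alpha-2-macroglobulin, highest at 1.49. Of 9 related metalloproteases, 2 were higher and 1 lower, and BMP1, the procollagen C-proteinase, changed by 2.03 with both plastic arrays at the lowest value.

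Of 16 partners that carry or regulate ADAMs, 5 were higher and 1 was lower. The tetraspanins TSPAN33 and TSPAN15, which guide ADAM10 to the membrane, changed by 2.31 and 1.27, and RHBDF2, which carries ADAM17 to the surface, by 1.69. TSPAN15 was 15.1 to 24.8 SD on crECM and 13.5 and 4.85 SD on plastic. RHBDF2 was 14.0 to 32.3 SD on crECM and 12.1 SD and the lowest value on plastic, and neither RHBDF2 nor TSPAN15 was called after quantile normalization (adjusted p = 0.064 and 0.051). TSPAN33 was 39.4 to 60.3 SD on crECM and 9.61 and 10.2 SD on plastic. Of 40 membrane proteins known to be shed, 9 were higher and 16 lower, among them betacellulin (BTC), an EGF receptor ligand released by ADAM10, at 2.72 and E-cadherin (CDH1) at -1.11, with 6.37, 18.9 and 21.6 SD on crECM and 33.4 and 39.2 SD on plastic. Of 37 matrix substrates, 14 were higher and 3 lower, led by COL4A3, a collagen of basement membranes, at 2.82 and EFEMP1 at 2.29. Of 34 regulators of transcription of these proteases, 3 were higher and 11 lower, with TGFB1 at -1.92 and the ETS factor ETV4 at -1.67, both of which were not called on rebuilt values. These counts stand beside the 24.2% and 20.1% of all genes called higher and lower.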

How the data were processed

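RT4 RNA from crECM (9 samples) and plastic (2 samples), carrying Cy3 as the only dye, was measured on spotted arrays. The authors deposited a raw intensity for each probe and array and a table of log10 values. By the methods of the study, the authors scaled each array to the SD of its noise around zero, moved to log10, and brought the arrays together with a robust linear regression. Values at or under zero share 1 lowest value per array, held by 1175 to 2651 probes. Genes were named from the platform annotation, in which 17043 probes have 1 symbol, 172 several (not used) and 5249 none, and 16952 matched the gene table of GRCh38.p14.

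The deposited log10 values were turned into log2, set to at least 3 SD and fitted with limma 3.58.1 in R 4.3.3 (lmFit, eBayes with a trend) over probes that passed 3 SD on 2 or more arrays, with Benjamini-Hochberg adjustment over all probes tested and calls at 0.05. Each gene was read from its probe with the highest mean. All 11 arrays entered the comparison of crECM with plastic. Log2 changes are on the floored scale, and a fold against any array at the floor is a lower bound. The noise peak was the mode of a kernel density of the raw intensity (bandwidth 8), with its SD from the values below it. Rebuilt values were raw intensities in these SDs. Python 3.11.15, numpy 2.4.6, pandas 2.3.3, scipy 1.17.1 and matplotlib 3.10.9 were used. The number of arrays limits the precision.

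Named were MMP13 and the TIMPs, members that met the off-on or on-off criteria, the 12 largest called changes in each direction of at least 1.5-fold without overlap, the 5 highest mean levels, a set of textbook members, members called over time, and up to 3 genes per direction of related lists. Other members named were chosen after their values were seen. The members and lists were chosen with earlier results of these data known. MMP28, a textbook member in that rule, was not analysed here. Alternatives were values rebuilt with and without regression, quantile normalization, other floors and filters, no trend, array weights, the mean over probes, the day itself in place of its log2, each array left out and, chosen after seeing the data, the 12 h and day 7 arrays left out together.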

Additional observations from a re-analysis of the deposited data

Results flagged for a closer look

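In 29 groups of crECM arrays of named genes with no more than 4 arrays at the 3 SD floor, the highest or lowest array was set against the rest by Dixon's test, which by chance flags 5% of groups, or 1.45 here, and 5 stood apart. The 12 h array was the highest for ADAMTS9 (47.8 SD, the next 7.62). ADAMTS9 was among the named genes only because of its call at 12 h, so its flag rests on the values that selected it. For that reason the 5 flags cannot be set against the 1.45. MMP24 was highest on day 4 at 83.8 SD (the next 55.0). MMP2 was lowest on day 2 at 13.6 SD (the next 20.7), MMP3 on day 6 at 11.3 SD (the next 20.3) and the first TIMP2 probe on day 9 at 4.9 SD (the next 26.0). The cause was not tested, and with 1 array per time a change of the cells and an error of the spot cannot be told apart.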

How the results depend on the processing

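The counts of called genes between crECM and plastic depended on the scaling and on the plastic arrays. Against 13 higher and 14 lower, values rebuilt without regression gave 39 and 0, those with regression 24 and 4, and the stricter filter (5 SD on 6 arrays) 8 lower. Leaving out 1 array gave 8 to 16 higher and 4 to 14 lower, the lowest counts being those without the first plastic array (8 and 4) and without the second (10 and 4). The median log2 change of 0.03 became 1.23 without regression, 0.43 with it, 0.19 under the stricter filter, 0.14 with the mean over probes and 0.10 without the 12 h and day 7 arrays, and 0.0004 to 0.19 when 1 array was left out. The 2 genes higher at 12 h became 1 without regression and under the stricter filter, 4 with regression and with array weights, 0 with a floor of 1 SD, 5 with no filter, and 1 to 3 when 1 array was left out, with 1 each without day 1, 2, 3, 4 or 6. The 2 off-on genes became 0 on rebuilt values with regression, after quantile normalization and when every array had to meet the criterion, and 1 (ADAMTS5) without the first plastic array. Directions turned, without and with regression, for ADAM12 (1.18, 0.14), ADAM9 (1.08, 0.028), MMP1 (1.14, 0.087), MMP2 (1.49, 0.42) and TIMP2 (1.28, 0.22), and without regression alone for ADAM30 (0.99), ADAMTS1 (0.80), MMP11 (0.27), MMP25 (0.34) and TIMP3 (0.24). With the mean over probes they turned for ADAM10 (-0.27), ADAM12 (0.27), ADAMTS12 (-0.39) and TIMP2 (0.74), by quantile normalization for ADAMTSL3 (-0.064) and TIMP4 (-0.17), and with 1 array left out for ADAM12 (range -0.21 to 0.0067), ADAMTSL3 (-0.36 to 1.74) and MMP12 (-0.016 to 0.046), in each case without the first plastic array, for MMP12 also without day 2 (-0.0057), and for TIMP2 without day 9 (range -0.37 to 0.0097). The cause was not tested. Over the 38 named genes, 707 of these values kept their direction and call, 38 lost the call, 22 gained it and 26 turned. No paired analysis was possible because the labels give the crECM arrays no replicate number to share with plastic. Signal over background limits the genes near the noise peak, where the raw noise SD was 23.8 to 37.3 on crECM and 39.5 to 45.6 on plastic.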
